A study of Mus musculus with 8 samples.

Results

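The comparison described here is olaparib plus EZM8266 against EZM8266 alone in ID8-OR cells. These are ID8 mouse ovarian cancer cells that the labels call olaparib-resistant, a property that all groups share. It uses 4 of the 8 libraries of the study, chosen by their titles. Combination replicates 1 and 2 were set against EZM8266 replicates 1 and 2, and the olaparib and DMSO libraries (2 each) give the same comparison without EZM8266. All cells were treated for 72 hours, and DMSO is the solvent control. Combination replicate 2 carries EZM8267, not EZM8266, in its treatment label, and was grouped by its title. The labels speak of treatment or transfection replicates without saying whether each had a culture of its own. The p-values thus cover the spread among these libraries only, and that spread may be technical. Doses, and whether the resistant line is a single clone, are not given in the sources used here.

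PARP enzymes, the targets of olaparib, mark broken DNA with chains of ADP-ribose and so recruit repair factors. EZM8266 inhibits EHMT1 and EHMT2, histone methyltransferases that place repressive methyl groups on lysine 9 of histone H3. That mark helps to keep endogenous retroviruses and some inducible genes silent, and double-stranded RNA from such elements, like DNA fragments left by damage, can set off a type I interferon response. In that response STAT and IRF transcription factors bind the interferon-stimulated response element in promoters of genes for chemokines, RNA editing and RNA sensing enzymes and ubiquitin-like modifiers.

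The deposited counts lie mostly on the strand opposite to the row they are listed under. In each library 83.8% to 88.6% of the counts sat in rows of which at least 50 exon bases lie over opposite-strand exons. Each row is therefore named below by that opposite-strand gene, with the row's own symbol in parentheses. A gene without such a row cannot be read this way, and where 2 expressed genes overlap their reads cannot be told apart. A level belongs to the row and not to the whole transcript of the named gene, so levels are compared only within a row. Fragments were counted over all exons of a row, and the overlapped stretch can be a small part of them. It is 3.38% of the exon bases of Art3, read as Cxcl10, 0.778% of those of Akap9, read as Cyp51, and 100% of those of Gm15655, read as Maf. Where in a row the fragments lie was not tested. The low-count filter kept 6379 of 54146 rows, of which 3554 overlap an opposite-strand exon.

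The combination libraries summed to 1103915 and 973396 counts, and the EZM8266 libraries to 1294195 and 973382. Over all 8 libraries the sums ran from 973382 to 1680974, and the floor of 3 counts equalled 1.78 to 3.08 CPM (counts scaled to the library total). Rows of the ribosomal RNA repeat took 22.9% and 15.1% of the counts in the combination and 16.2% and 12.7% in EZM8266, and 14.2% to 29.1% in the other 4 libraries. The satellite-like Gm10800 row held 22517 counts in olaparib replicate 2 and 23746 in DMSO replicate 1, against 1182 to 4277 in the other 6. Neither of these libraries belongs to the combination or EZM8266 groups, and the main results that use them are also given without them, a setting added after seeing the data. The share of Rmrp fragments listed under the gene's own strand, which shows how far strands leak into each other, was 1.44% and 1.21% in the combination and 1.55% and 1.04% in EZM8266. The cell type marker lists gave few readable rows. Krt8 (Gm36026), an epithelial keratin, stood at 211 and 244 CPM in the combination and 242 and 252 CPM in EZM8266. The macrophage list had 1 row, F13a1 (Gm30489), and the T cell list 1, Trdc (Gm43434), both given below. Read through the opposite strand, the fibroblast, B cell and endothelial lists had 0 tested rows.

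The promoter of Cxcl10, the gene with the smallest p among the rows that were higher in the combination, and the start of Eif2ak2, another interferon response gene, are shown because both hold a core of the interferon-stimulated response element, GAAA followed by any 2 bases and GAAA. The sequences are from RefSeq for GRCm38.p6, and the capitals mark the match. The Cxcl10 stretch, chr5:92348890-92349139 on the minus strand, is the 250 bases before the gene start, and its match begins 213 bases before that start. The Eif2ak2 stretch, chr17:78882534-78882563 on the minus strand, is 30 bases around a match that begins 19 bases after the start.
Cxcl10: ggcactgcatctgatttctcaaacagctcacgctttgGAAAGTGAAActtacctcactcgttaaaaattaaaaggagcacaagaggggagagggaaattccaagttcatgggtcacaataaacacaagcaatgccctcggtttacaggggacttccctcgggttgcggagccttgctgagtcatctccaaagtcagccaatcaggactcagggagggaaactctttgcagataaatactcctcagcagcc
Eif2ak2: gtccgccggGAAAACGAAAcagaagagaac

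The letters were searched on both strands in windows of 250 bases before to 50 after each start. They occurred in 17 of 40 windows of the interferon list (42.5%) and in 1131 of 32851 windows of all genes (3.44%). The 40 windows belong to 33 genes of the list, most of them without a tested row. That share describes the choice of list and not the tested rows. A second motif, the gamma-activated site (TTC, any 3 bases, GAA), occurred in 6 of 40 windows of the list (15%) and in 8.3% of all windows. No match to the first motif was found in the windows of Rnf213, Adar, Sp140, Dtx3l and Ifi35. A match is a string of letters and not a measured binding site.

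Across all rows, no difference between the combination and EZM8266 alone passed the test. In edgeR's quasi-likelihood test, with a Benjamini-Hochberg adjusted p below 0.05 as the threshold, 0 of 6379 rows were called (0%). The smallest adjusted p was 0.0798, for the Gm27177 row. An unadjusted p under 0.05 was reached by 97 rows, 56 higher (0.878%) and 41 lower (0.643%), where 319 would be the count if p-values were spread evenly. DESeq2 called 1 row, Gm27177, and gave an unadjusted p under 0.05 to 22. The median log2 fold change of all tested rows was 0.00, and 49.5% of rows were above 0. Among the 1329 rows that averaged 100 counts or more the 5th and 95th percentiles were -0.25 and 0.20, the extremes were -1.01 and 0.82, and the median standard error (SE) was 0.15. Over all rows the median SE was 0.41.

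Olaparib without EZM8266 gave the same count. In the comparison of olaparib with DMSO 0 of 6379 rows were called by edgeR (0%), the smallest adjusted p was 0.999, and 117 rows had an unadjusted p under 0.05. DESeq2 also called 0, with 17 rows at an unadjusted p under 0.05. The difference between the olaparib effect with EZM8266 and the effect without it, which uses no library on both sides, was called by edgeR in 0 rows (0%), with a smallest adjusted p of 0.195 and 103 rows at an unadjusted p under 0.05. DESeq2 called 1 row for that difference and gave an unadjusted p under 0.05 to 26. For contrast, edgeR called 13 rows for EZM8266 against DMSO (0.204%), 12 higher (0.188%) and 1 lower (0.0157%). It called 14 for the combination against DMSO (0.219%), 12 higher (0.188%) and 2 lower (0.0314%), and these comparisons share the DMSO libraries. Without DMSO replicate 1 and olaparib replicate 2, which leaves 1 DMSO library assumed to vary like the other groups, edgeR called 3 of the 13 (0.0415% of the rows tested there) and 5 of the 14 (0.0692%), and no others.

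Rows of interferon response genes had higher values in the combination than in EZM8266 alone, and none was called. Of 41 genes on the list 9 had a tested row, and all 9 of these rows had a log2 fold change above 0, with a median of 0.40 (range 0.23 to 1.01), beside a median of 0.00 over all rows. In 8 of the 9 both combination libraries lay above both EZM8266 libraries, as did 776 of all 6379 rows (12.2%), and 0 of the 9 lay below, against 744 of all rows (11.7%). An unadjusted edgeR p under 0.05 with a higher value was reached by 4 of the 9, and by 56 of all 6379 rows (0.878%). The list holds Cxcl10, Rnf213 and Sp140, which were added with earlier results of these data known. Without these 3 the median was 0.36, with 6 of 6 rows above 0 and 5 not overlapping. Only Adar and Ifi35 then remained of the rows with an unadjusted edgeR p under 0.05. The rest of the list was also chosen with earlier results of these data known. The values without these 3 genes are therefore no independent check. Read by the row's own symbol instead, the list had 8 tested rows, of which 6 were above 0, and a median of 0.20. The shares of ribosomal RNA repeat counts and of strand leakage overlapped between the 2 groups. In a fit that took strand leakage into account the median was 0.40, and without the ribosomal RNA repeat rows it was 0.39. Whether a technical difference between the groups adds to the interferon values was not tested. In bulk RNA, more cells with a transcript and more transcript per cell cannot be told apart.

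Cxcl10 (the Art3 row, chr5:92331827-92414628 in mm10) encodes a chemokine that draws T cells and is a classical interferon target. Its exons share 133 bases with the Art3 row. The row had 119 and 110 CPM in the combination and 58.1 and 72.5 CPM in EZM8266, 70.8 and 61.7 CPM in olaparib and 37.1 and 51.0 CPM in DMSO. Both combination libraries lay above all 6 others, and both DMSO libraries lay below the other 6. The combination was 1.76-fold above EZM8266, with a log2 fold change of 0.82 ± 0.20 (SE, 95% interval 0.42 to 1.22, edgeR unadjusted p 0.00144, adjusted p 1). Its adjusted p ran from 0.0727 to 1 over the 18 other settings tried. The row under Cxcl10's own strand held 0 to 2 counts in each library.

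Adar (Chrnb2) encodes the enzyme that edits adenosine to inosine in double-stranded RNA and so keeps it from RNA sensors. Its row had 254 and 243 CPM in the combination and 185 and 190 CPM in EZM8266. Olaparib gave 191 and 205 CPM and DMSO 149 and 174 CPM. The combination and EZM8266 values did not overlap, with a log2 fold change of 0.40 ± 0.13 (edgeR unadjusted p 0.0103, adjusted p 1).

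Eif2ak2 (Gm26637) encodes PKR, the kinase that binds double-stranded RNA and halts translation. It had 162 and 147 CPM in the combination and 137 and 115 CPM in EZM8266, 153 and 152 CPM in olaparib and 137 and 113 CPM in DMSO. Values with olaparib were above those without it in both settings, by log2 fold changes of 0.29 with EZM8266 and 0.29 without, and exons of Sult6b1 also lie under this row. Values of 2 other sensors overlapped between the groups. Cgas (Gm8093), the DNA sensor, had 13.7 and 13.3 CPM in the combination and 11.8 and 17.4 CPM in EZM8266, and Tlr3 (Gm45542), a receptor for double-stranded RNA, had 3.92 and 8.53 CPM in the combination and 4.41 and 14.5 CPM in EZM8266.

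Rnf213 (A930037H05Rik), is a large ubiquitin ligase with a part in antimicrobial defence. Its row stood at 1121 and 1187 CPM in the combination and 916 and 908 CPM in EZM8266, and at 686 and 802 CPM in olaparib and 625 and 605 CPM in DMSO. The 4 groups did not overlap. The log2 fold change of the combination over EZM8266 was 0.34 ± 0.12 (95% interval 0.11 to 0.57), with an edgeR unadjusted p of 0.0116 and an adjusted p of 1.

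Ifi35 (Gm11626), an interferon-induced leucine zipper protein, had 103 and 123 CPM in the combination and 66.9 and 90.9 CPM in EZM8266, with olaparib at 91.5 and 68.8 CPM and DMSO at 81.9 and 60.6 CPM. The log2 fold change was 0.53 ± 0.22 (edgeR unadjusted p 0.0332, adjusted p 1). Usp18 (Gm44148) encodes the enzyme that removes the ubiquitin-like protein ISG15 and dampens interferon receptor signalling. Its row had 26.4 and 21.8 CPM in the combination and 8.09 and 16.4 CPM in EZM8266, and 7.15 and 9.49 CPM in olaparib and 0.952 and 5.40 CPM in DMSO. Its DMSO replicate 1 value was under the floor of 3 counts, and its log2 fold change of 1.01 ± 0.51 had an edgeR unadjusted p of 0.0691.

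Sp140 encodes a nuclear body protein of the chromatin reader family. The Gm17017 row, over its exons, had 63.6 and 60.6 CPM in the combination and 42.7 and 48.4 CPM in EZM8266, and 17.9 and 33.2 CPM in olaparib and 20.0 and 20.4 CPM in DMSO. The Gm10552 row, inside the Sp140 body without exon overlap, had 44.1 and 47.4 CPM in the combination and 24.3 and 30.9 CPM in EZM8266, and 19.3 and 19.8 CPM in olaparib and 10.5 and 11.4 CPM in DMSO. In both rows every combination and EZM8266 library lay above the olaparib and DMSO libraries. The log2 fold changes of the combination over EZM8266 were 0.45 ± 0.27 and 0.74 ± 0.27.

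Parp9 and Dtx3l encode partners in a complex of a PARP family protein and a ubiquitin ligase. Their genes overlap on opposite strands, so each is read through the row of the other. The Dtx3l row, read as Parp9, had 71.5 and 43.6 CPM in the combination and 52.2 and 39.7 CPM in EZM8266, which overlap. The Parp9 row, read as Dtx3l, had 53.9 and 56.9 CPM in the combination and 43.4 and 51.3 CPM in EZM8266. How the fragments divide between this pair was not tested.

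**Figure D1:**
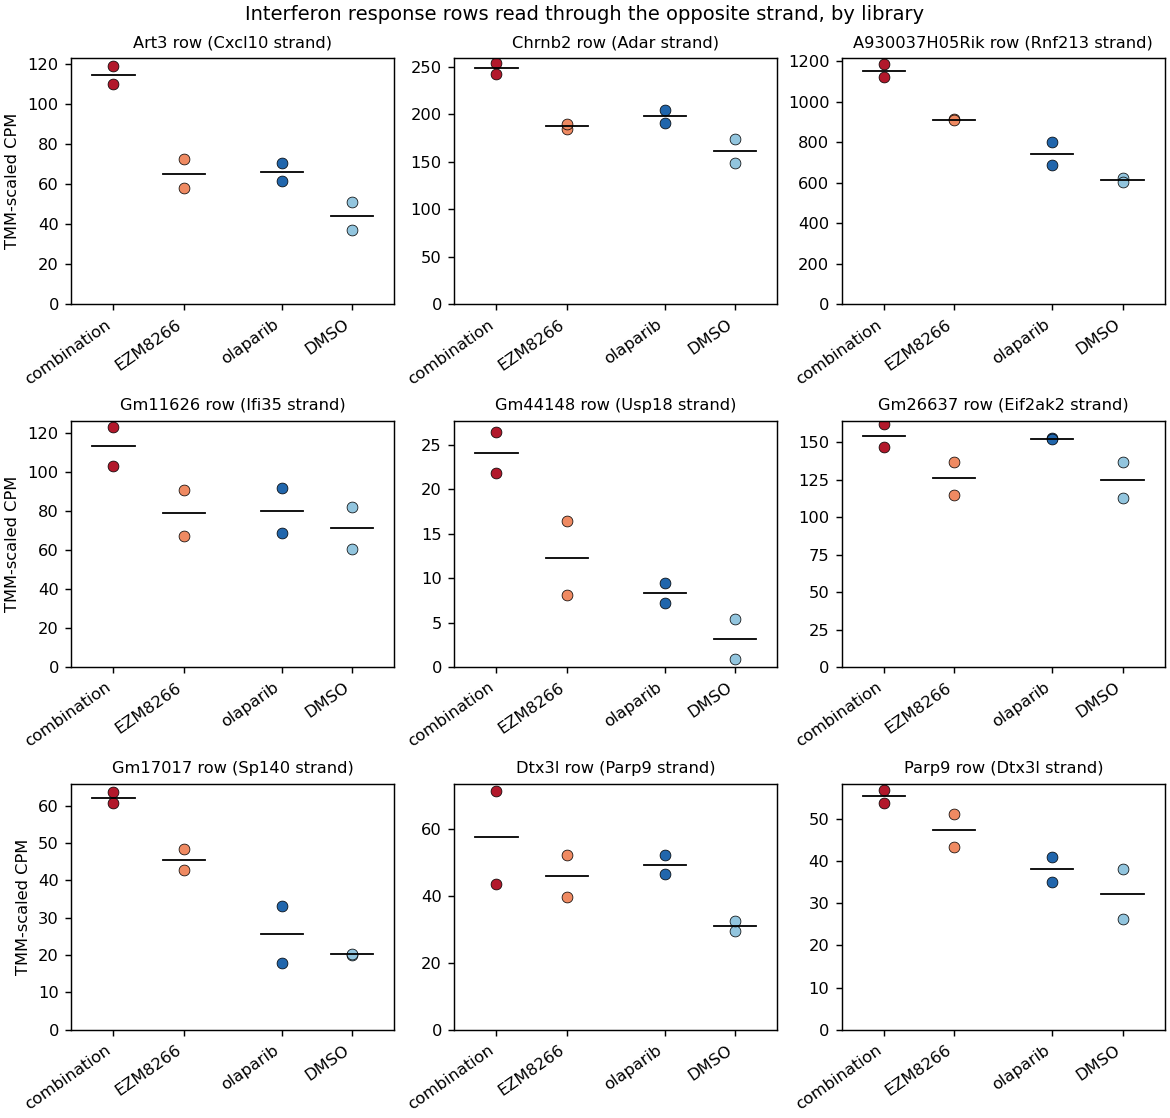
TMM-scaled CPM (vertical axes, from 0) of the 9 tested rows of the interferon list, with the 4 groups on the horizontal axis, 1 point per library and a bar at the mean of 2. In 8 of the 9 panels both combination points lie above both EZM8266 points, and the exception is the Dtx3l row.

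The values with olaparib alone lay in the same direction. Against DMSO all 9 rows were above 0 with a median log2 fold change of 0.29, and in 6 both olaparib libraries lay above both DMSO libraries, as they did in 965 of all rows (15.1%). In 0 of the 9 both olaparib libraries lay below both DMSO libraries, against 998 of all rows (15.6%). Without DMSO replicate 1 and olaparib replicate 2, 8 of the 9 were above 0 with a median of 0.43. That value sets 1 olaparib library against 1 DMSO library. In the same fit the combination against EZM8266 had 9 of 9 above 0 and a median of 0.41. The difference between the olaparib effect with and without EZM8266 ranged from -0.35 to 0.34 over the 9 rows with a median of 0.07, and 0 had an unadjusted p under 0.05 in edgeR. For Cxcl10 that difference was 0.25 ± 0.29 and for Rnf213 0.07 ± 0.16. In no row of the list was the effect of olaparib under EZM8266 told apart from its effect alone. EZM8266 against DMSO, which shares libraries with both comparisons, had 9 of 9 rows above 0 and a median of 0.57 (0.51 without the same 2 libraries).

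**Figure D2:**
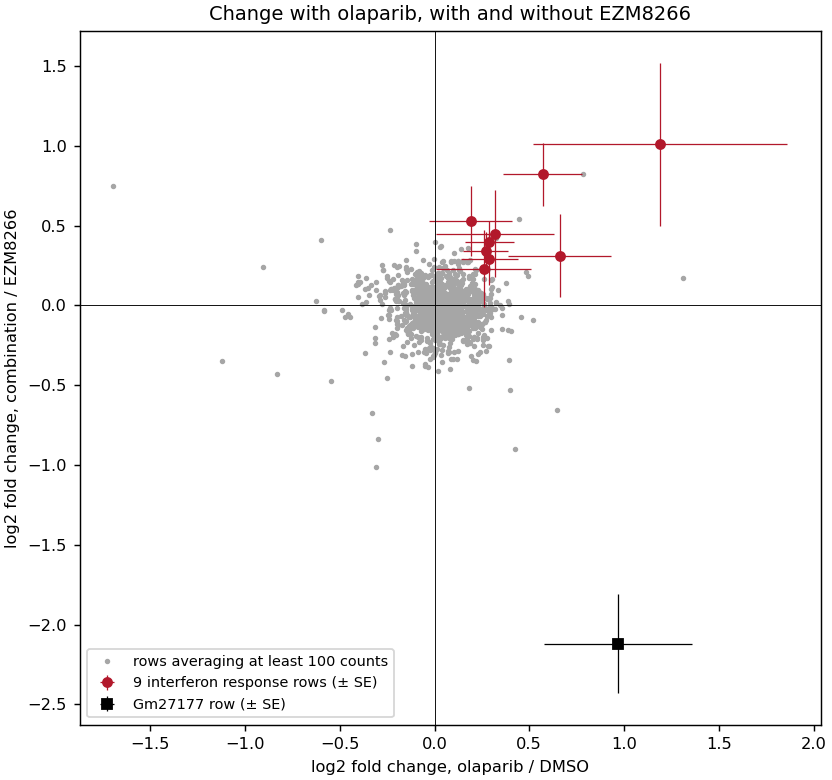
Log2 fold change of olaparib over DMSO (horizontal axis) against that of the combination over EZM8266 (vertical axis) for 1329 rows that averaged 100 counts or more (grey), the 9 interferon rows (red) and the Gm27177 row (black), the last 2 with SE bars. All 9 interferon rows lie above 0 on both axes, while the Gm27177 row lies at 0.97 and -2.12.

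Across those 1329 rows the olaparib effects with and without EZM8266 had a Pearson r of -0.03 (-0.12 without DMSO replicate 1 and olaparib replicate 2). The rows share libraries and depth and are not independent, and r is given as a description.

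Lists related to the interferon response had medians near 0. Of the antigen presentation genes 4 rows were tested, with 2 above 0 and a median of 0.08. Tapbp (Gm19412), which loads peptides onto class I molecules, had 612 and 600 CPM in the combination and 518 and 515 CPM in EZM8266 (log2 fold change 0.23 ± 0.11, edgeR unadjusted p 0.0632), without overlap. Tap2 (Gm15821), a subunit of the peptide transporter, had lower values in both combination libraries, with 31.3 and 24.6 CPM in the combination and 31.6 and 36.8 CPM in EZM8266. Of the chemokines and cytokines 5 rows were tested, with a median of 0.03. Il34 (Gm15895), a ligand of the CSF1 receptor, had 33.3 and 34.1 CPM in the combination and 20.6 and 26.1 CPM in EZM8266, and Cxcl16 (Zmynd15) had 328 and 426 CPM in the combination and 377 and 363 CPM in EZM8266. The NF-kB target list had 4 rows, 2 of them above 0, and a median of 0.01.

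The Gm27177 row carried the smallest p of the comparison and was lower in the combination. It had 19.6 and 22.7 CPM in the combination (20 and 24 counts) and 110 and 73.5 CPM in EZM8266 (149 and 76 counts). With olaparib alone it had 18.6 and 19.8 CPM and with DMSO 5.71 and 12.6 CPM. Both EZM8266 libraries lay far above the other 6, and the combination libraries lay beside the olaparib libraries. The log2 fold change was -2.12 ± 0.31 (95% interval -2.72 to -1.51), a ratio of 0.231, with an edgeR adjusted p of 0.0798. Over the 18 other settings it ran from -2.35 to -1.77, the adjusted p from 9.25e-08 to 0.682, and 8 of the 18 called it. The olaparib effect differed by -3.09 ± 0.50 from that without EZM8266 (edgeR adjusted p 0.195). Its combination libraries lay below both EZM8266 libraries and its olaparib libraries above both DMSO libraries, and such opposite positions without overlap occurred in 266 of all rows (4.17%).

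What the Gm27177 row counts could not be settled from the table. The row, chr14:69582164-69683286 on the minus strand of mm10, shares 1700 exon bases with Entpd4b, a Golgi nucleotidase gene, and 301 with Loxl2, a lysyl oxidase that crosslinks collagen. Every stretch of 150 bases, the length of a read, in the annotated transcripts of Gm27177 and Entpd4b also occurs in transcripts of the near-identical Entpd4 copy (100%), while 1.86% and 3.32% of those in the 2 Loxl2 transcripts do. The Entpd4 and Entpd4b rows held 0 counts in all 8 libraries, and Gm16867, the counterpart at the Entpd4 copy, held 0 or 1. Loxl2's own row had 10.8 and 5.69 CPM in the combination and 6.62 and 6.77 CPM in EZM8266. Which of these genes gave the fragments was not tested.

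Of the 13 rows called for EZM8266 against DMSO, Gm27177 among them, 8 overlapped between the combination and EZM8266, 4 lay lower in the combination (11.7% of all rows did) and 1 higher (12.2% of all rows). The 2 comparisons share the EZM8266 libraries. Serpinb9b (Gm36099), a serine protease inhibitor gene, had 355 and 345 CPM in the combination and 352 and 428 CPM in EZM8266, against 139 and 117 CPM in olaparib and 108 and 89.5 CPM in DMSO. Its log2 fold change of the combination over EZM8266 was -0.15 ± 0.15 (95% interval -0.44 to 0.13). F13a1 (Gm30489), the A subunit of coagulation factor XIII, had 184 and 166 CPM in the combination and 169 and 191 CPM in EZM8266 (-0.04 ± 0.15, 95% interval -0.33 to 0.24). The groups overlapped in both rows.

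Thbs1 (Gm29233), the matrix protein thrombospondin, was the only row called lower for EZM8266 against DMSO. It had 304 and 308 CPM in the combination and 295 and 387 CPM in EZM8266, against 662 and 715 CPM in olaparib and 723 and 689 CPM in DMSO, and the combination differed from EZM8266 by -0.15 ± 0.14 (95% interval -0.43 to 0.12). Abcb1a (Gm42686), the drug efflux pump that exports olaparib, had 47.0 and 51.2 CPM in the combination and 48.5 and 42.6 CPM in EZM8266, against 15 and 20.6 CPM in olaparib and 15.2 and 16.2 CPM in DMSO. Its log2 fold change of 0.10 ± 0.25 had an interval of -0.38 to 0.59. Trdc (Gm43434), a T cell receptor constant gene, had 49.0 and 55.0 CPM in the combination and 35.3 and 58.0 CPM in EZM8266 (0.17 ± 0.30).

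Gdnf, a neurotrophic factor, has no gene on the other strand and is given by its own row. Its counts are therefore on the strand that holds the minority of fragments, and what they count was not tested. It had 434 and 439 CPM in the combination and 350 and 395 CPM in EZM8266, without overlap, and 200 and 207 CPM in olaparib and 165 and 185 CPM in DMSO. The log2 fold change was 0.23 ± 0.13 (edgeR unadjusted p 0.0894). Ica1l (Fam117b) had 18.6 and 14.2 CPM in the combination and 30.2 and 34.8 CPM in EZM8266, and 8.58 and 8.70 CPM in olaparib and 3.81 and 6.60 CPM in DMSO. Both combination libraries lay between the EZM8266 and the olaparib libraries, with a log2 fold change of -0.98 ± 0.36 (edgeR unadjusted p 0.0183, adjusted p 1). Smpd3 (Prmt7), a neutral sphingomyelinase, had 177 and 153 CPM in the combination and 206 and 197 CPM in EZM8266 (-0.29 ± 0.15, and -0.41 to -0.19 over the other settings). Gm13415 (Pax8) had 17.6 and 26.5 CPM in the combination and 27.9 and 45.5 CPM in EZM8266 (-0.71 ± 0.40, and -1.04 to -0.32 over the other settings). These counts are listed under the Pax8 row but are not read as Pax8.

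**Figure D3:**
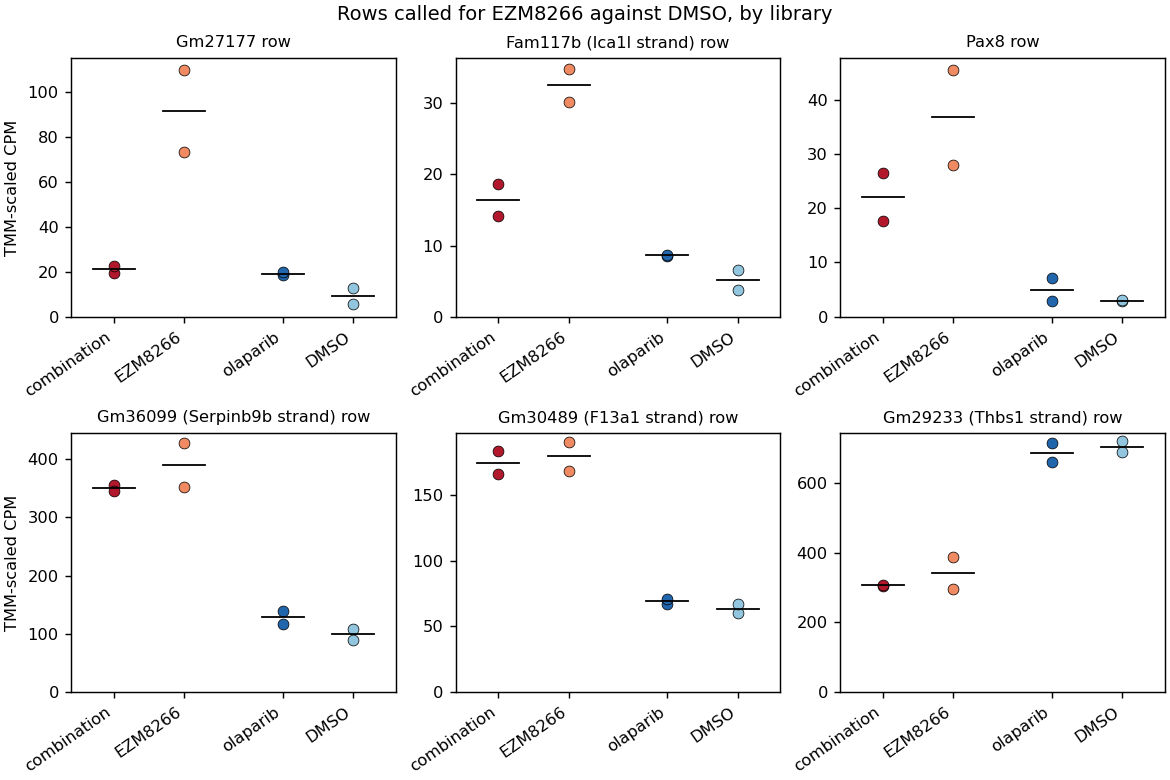
TMM-scaled CPM (vertical axes, from 0) of 6 of the 13 rows called for EZM8266 against DMSO, 1 point per library and a bar at the mean of 2, groups on the horizontal axis. The combination points lie below both EZM8266 points in the 3 upper panels and overlap them in the 3 lower panels.

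The 4 direct drug targets could be read poorly. Parp1 had 18.6 and 15.2 CPM in the combination and 25.0 and 7.74 CPM in EZM8266 (log2 fold change -0.01 ± 0.49, 95% interval -0.98 to 0.95). Ehmt2 had 17.6 and 8.53 CPM in the combination and 5.88 and 6.77 CPM in EZM8266, and 12.2 and 11.9 CPM in olaparib and 15.2 and 18 CPM in DMSO. Its log2 fold change of 1.04 ± 0.52 had an edgeR unadjusted p of 0.0622, and ran from 0.43 to 1.47 without single combination libraries. Neither row has a gene on the other strand, so these are counts on the minority strand, and Parp2 and Ehmt1 did not pass the filter.

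DNA repair genes are needed for the damage that trapped PARP leaves. None of their rows was called in the combination against EZM8266, as none of all 6379 rows was (0%). Of 26 homologous recombination genes 6 rows were tested, with 1 above 0 and a median of -0.01. Fanca (Zfp276), of the Fanconi anaemia core complex, had 64.6 and 73.0 CPM in the combination and 83.8 and 90.9 CPM in EZM8266 (-0.34 ± 0.19, edgeR unadjusted p 0.0980), and Vps9d1 exons lie under the same row. Fancd2 (Fancd2os), which that complex modifies, had 58.7 and 78.7 CPM in the combination and 64.7 and 60.0 CPM in EZM8266.

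End joining and break signalling gave 6 rows, with 3 above 0 and a median of -0.02. Trp53bp1 (Tubgcp4), which directs breaks towards end joining, had 135 and 145 CPM in the combination and 132 and 124 CPM in EZM8266 (0.13 ± 0.15). Lower without overlap, as were 11.7% of all rows, were Lig3 (Rffl), a DNA ligase, and Xrcc6 (Desi1), the Ku70 end-binding protein. Lig3 had 406 and 416 CPM in the combination and 435 and 442 CPM in EZM8266 (-0.09 ± 0.12). The Xrcc6 row, of few counts, had 3.92 and 6.63 CPM in the combination and 13.2 and 6.77 CPM in EZM8266 (-0.94 ± 0.62, edgeR unadjusted p 0.148). Combination replicate 2 and EZM8266 replicate 2 both held 7 counts there. The fork protection list gave 4 rows and a median of -0.03, with Atr (Gm16794), the replication stress kinase, at 179 and 182 CPM in the combination and 171 and 206 CPM in EZM8266. The PARP and base excision repair list gave 6 rows and a median of 0.06. Within it Parp4 (Gm16573) had 111 and 112 CPM in the combination and 119 and 113 CPM in EZM8266, and Apex1 (Pip4p1), the abasic site nuclease, had 917 and 905 CPM in the combination and 917 and 1021 CPM in EZM8266.

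The p53 target list had 6 tested rows of 28 genes, with 3 above 0 and a median of 0.04. Plk3 (Tctex1d4), a stress-responsive kinase, had the highest log2 fold change of the list, with 31.3 and 19.9 CPM in the combination and 16.9 and 14.5 CPM in EZM8266 (0.69 ± 0.42, edgeR unadjusted p 0.124). Rrm2b (Gm49085), a subunit of ribonucleotide reductase induced by p53, had 46.0 and 50.2 CPM in the combination and 47.1 and 68.7 CPM in EZM8266. Neither passed the test.

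Cell cycle genes had 14 tested rows, 4 above 0, and a median of -0.03. Ccnd1 (LTO1), cyclin D1, had 2946 and 2812 CPM in the combination and 2835 and 3080 CPM in EZM8266 (-0.04 ± 0.11), and Ccna2 (Exosc9), cyclin A2, had 1045 and 934 CPM in the combination and 933 and 1236 CPM in EZM8266. The apoptosis list had 10 rows, 4 above 0, and a median of -0.05. Bad (Gpr137), which promotes cell death, had 41.1 and 40.7 CPM in the combination and 30.9 and 30 CPM in EZM8266 (0.42 ± 0.25), and Bcl2 (D630008O14Rik), which opposes it, had 156 and 157 CPM in the combination and 167 and 171 CPM in EZM8266 (-0.11 ± 0.13). Casp9, the initiator caspase, was read through 2 rows that hold the same counts (Cela2a and Ctrc), with 17.6 and 22.7 CPM in the combination and 22.8 and 46.4 CPM in EZM8266.

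Genes of H3K9 methylation and silencing had 14 tested rows, 5 above 0, and a median of -0.06. Suv39h1 (Gm14820), an H3K9 trimethylase, had 352 and 348 CPM in the combination and 345 and 338 CPM in EZM8266 (0.03 ± 0.12). Setdb1 (Gm37500), which silences retroviruses, had 9.79 and 18 CPM in the combination and 20.6 and 23.2 CPM in EZM8266 (-0.64 ± 0.39, edgeR unadjusted p 0.118). Wiz (Gm26858), a partner of the EHMT complex, had 32.3 and 31.3 CPM in the combination and 27.2 and 46.4 CPM in EZM8266, which overlap.

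The remaining lists also had medians near 0. They were -0.09 for 13 rows of matrix and epithelial-mesenchymal genes, 0.08 for 4 of drug efflux, -0.10 for 3 of the unfolded protein response, -0.16 for 7 of cholesterol and lipid synthesis, 0.02 for 8 of glycolysis and hypoxia, 0.11 for 6 of senescence and lysosome and -0.04 for 10 of histones. In the lipid list Hmgcs1 (Gm48342), of the cholesterol pathway, had 1787 and 1953 CPM in the combination and 1827 and 2359 CPM in EZM8266 (-0.16 ± 0.13). In the unfolded protein list Eif2ak3 (Gm43292), which encodes PERK, had 98.9 and 100 CPM in the combination and 110 and 137 CPM in EZM8266 (-0.31 ± 0.16, edgeR unadjusted p 0.0779). The histone list includes rows whose replicates differ widely, such as Hist2h2aa1 (Gm47313) at 143 and 49.3 CPM in the combination and 132 and 171 CPM in EZM8266.

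**Figure D4:**
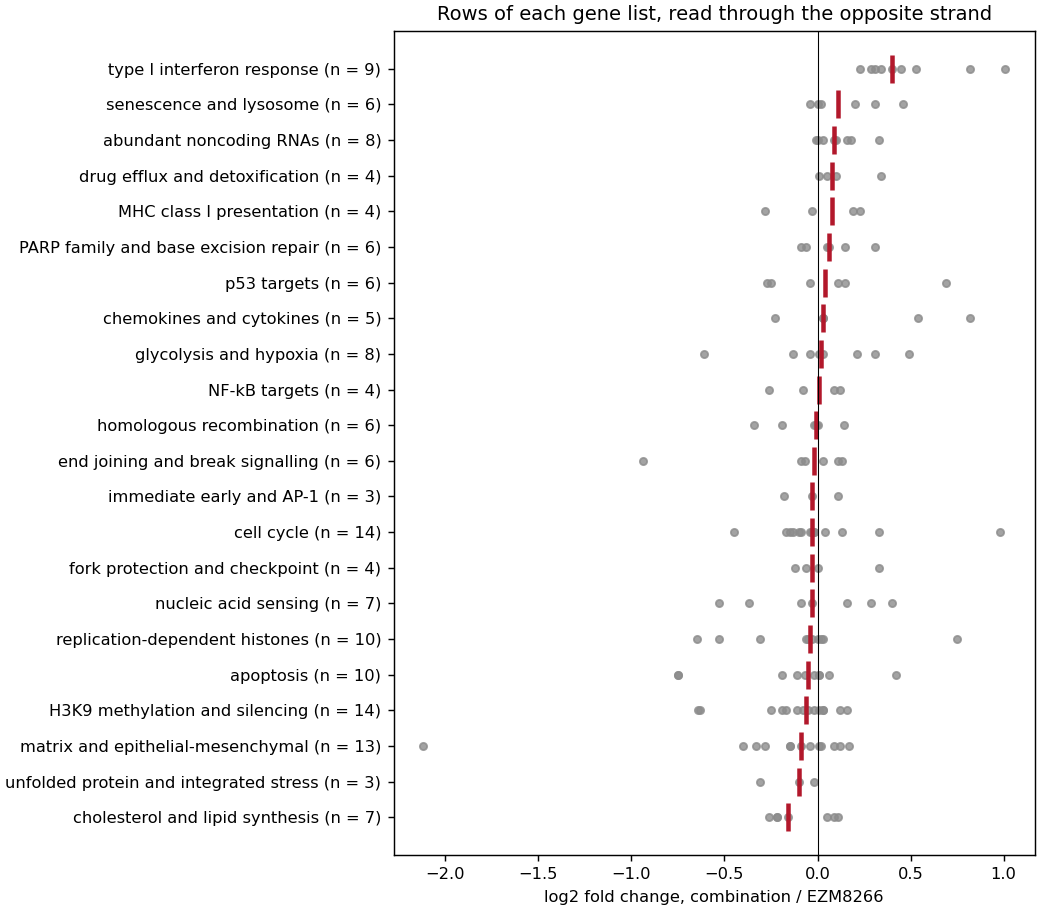
Log2 fold change of the combination over EZM8266 (horizontal axis) for every tested row (grey points) of 22 gene lists plus their medians (red bars), lists ordered by median with the number of rows in brackets. The interferon list has a median of 0.40 and all its rows above 0, and the other medians lie between -0.16 and 0.11.

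In or outside the lists, rows with a named opposite-strand gene, a mean of at least 20 CPM and no overlap between the groups were taken. They were 236 higher and 266 lower in the combination. Of all 6379 rows, at any level, 12.2% lay higher without overlap and 11.7% lower. The share among rows that meet the other conditions is not given. The 10 selected rows with the smallest p in each direction include Cxcl10, Adar, Rnf213 and Gm27177, given above. Aifm2 (H2afy2) encodes FSP1, an oxidoreductase that protects lipids from peroxidation. It had 40.1 and 33.2 CPM in the combination and 18.4 and 15.5 CPM in EZM8266, and 25.0 and 22.9 CPM in olaparib and 20.0 and 20.4 CPM in DMSO. The log2 fold change of 1.10 ± 0.30 had an edgeR unadjusted p of 0.00275 and an adjusted p of 1.

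Ctsa (Neurl2), lysosomal cathepsin A, had 43.1 and 42.6 CPM in the combination and 27.9 and 22.2 CPM in EZM8266, and 39.3 and 36.4 CPM in olaparib and 38.1 and 34.8 CPM in DMSO. Here the EZM8266 libraries were the lowest of the 8, and the other 6 lay close together. For Ppp1r12b (Gm28892), a regulatory subunit of myosin phosphatase, the EZM8266 libraries were also the lowest. Its row had 32.3 and 25.6 CPM in the combination and 20.6 and 11.6 CPM in EZM8266, and 29.3 and 30.8 CPM in olaparib and 30.5 and 28.8 CPM in DMSO. Log2 fold changes were 0.76 ± 0.25 for Ctsa and 0.81 ± 0.33 for Ppp1r12b, and both had an edgeR adjusted p of 1.

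Rab2b (Gm43766), a small GTPase of Golgi traffic, had higher values in the olaparib-treated libraries, with and without EZM8266. It had 97.9 and 102 CPM in the combination and 73.5 and 63.8 CPM in EZM8266, and 100 and 109 CPM in olaparib and 78.1 and 75.6 CPM in DMSO. The log2 fold change was 0.54 ± 0.17 with EZM8266 and 0.45 without. The other rows higher in the combination were Brwd1 (Gm15342) at 0.61, Cracr2b (Gm10575) at 0.47 and Hsd3b7 (9430064I24Rik), an enzyme of bile acid synthesis, at 0.49. Cd151 exons also lie under the Cracr2b row.

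Among the lower rows, the transcription factor gene Maf (Gm15655) had 548 and 535 CPM in the combination and 641 and 687 CPM in EZM8266, and 560 and 553 CPM in olaparib and 602 and 511 CPM in DMSO. Rbl2 (Gm45464), the retinoblastoma family member p130, had 135 and 126 CPM in the combination and 168 and 163 CPM in EZM8266, and 139 and 157 CPM in olaparib and 124 and 103 CPM in DMSO. Both differences were small, at -0.29 ± 0.12 and -0.34 ± 0.15, with edgeR unadjusted p-values of 0.0301 and 0.0400 and adjusted p-values of 1.

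Other lower rows were Fam104a (Cog1) at -0.38, Nepro (Gtpbp8) at -0.37, Dctn6 (Gm26768), a dynactin subunit, at -0.34, the histone gene Hist2h2ab (Gm15444) at -0.52, Usp33 (Gm42967), a deubiquitinase, at -0.40 and Hmgn3 (Gm29054), a nucleosome-binding protein, at -0.41. Hist2h2ab rested on combination replicate 2, at 123 CPM, with combination replicate 1 at 232 CPM and EZM8266 at 236 and 274 CPM. Single libraries moved some of these values by over 1.5 times. Over the 18 other settings Hist2h2ab ran from -1.05 to -0.14, Hmgn3 from -0.61 to -0.16, Usp33 from -0.56 to -0.26, Hsd3b7 from 0.27 to 0.68 and Ppp1r12b from 0.50 to 1.33, with each extreme reached by leaving out 1 combination or EZM8266 library. Gm27177, under 8 of those settings, was the only 1 of the 20 with an adjusted p under 0.05.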

How the data were processed

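RNA of 8 libraries in 4 groups of 2 was analysed. The authors deposited raw fragment counts, as whole numbers, for 54146 rows. HISAT2 2.1.0, Subread 1.6.2, FastQC 0.11.8, MultiQC 1.7 and the build mm10 are named in the submitters' processing notes. Per the file headers, the counter featureCounts counted pairs over exons of GENCODE M18 with strand setting 1 and let a fragment count for each gene it overlapped. Per the labels' protocols, ribosomal RNA was depleted from 500 ng of RNA, and the KAPA mRNA HyperPrep libraries (11 cycles) were read as 150-base pairs.

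Opposite-strand exons came from the exon positions deposited with the counts (GENCODE M18). Symbols came from GENCODE M21, which named 54079 rows. edgeR 4.0.16 (quasi-likelihood F test, TMM, filterByExpr with a minimum count of 10 and total of 15, R 4.3.3) fitted all 8 libraries with 4 group means, and called rows at a Benjamini-Hochberg adjusted p under 0.05. CPM are TMM-scaled. The fit was tested on simulated counts with 200 rows changed in the combination. It called 31.5% of rows changed 2-fold and 77% of rows changed 4-fold. Among changed rows averaging 100 counts or more it called 88.1% and 100%. At 2-fold 12 of 75 calls were false, and at 4-fold 11 of 165. Simulated libraries were drawn independently at the fitted dispersions. The correlated deviations of same-numbered libraries, given below, were not simulated, so these rates may not hold for the measured counts. DESeq2 1.42.0, other filters and scalings, a replicate block and leaving out libraries were alternatives. Named were called rows, 10 rows in each direction by p among non-overlapping rows over 20 CPM, up to 4 rows per list, rows called against DMSO, and the 4 targets. Usp18, Dtx3l, Cgas, Cxcl16, Ccna2, Ccnd1, Wiz, Suv39h1, Krt8 and the rows at the Gm27177 locus were chosen after their values were seen. Some rows that this rule named are not reported here. Members and lists were chosen with earlier results of these data known. Floors cover counting error only, and intervals come from the SE of the fit.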

Additional observations from a re-analysis of the deposited data

Results flagged for a closer look

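In 16 of the 116 tested rows that the naming rule gives both combination libraries lay on one side of both EZM8266 libraries while both olaparib libraries lay on the other side of both DMSO libraries. Among all 6379 rows 266 did (4.17%), and many of the 116 were named for lying apart or for a small p, so the 2 shares are not comparable. The value given for each is the olaparib log2 fold change with EZM8266 minus that without it, tested in edgeR as an interaction. The Gm27177 row had -3.09 (adjusted p 0.195). Ica1l (Fam117b) had -1.63, with 18.6 and 14.2 CPM in the combination and 30.2 and 34.8 CPM in EZM8266, and 8.58 and 8.70 CPM in olaparib and 3.81 and 6.60 CPM in DMSO. Ehmt2 had 1.52, on rows of 5.88 to 18 CPM. Rbl2 (Gm45464) had -0.74 and Hist2h2ab (Gm15444) -0.70. Cracr2b (Gm10575) had 0.70, with 106 and 111 CPM in the combination and 69.9 and 87.0 CPM in EZM8266, and 67.9 and 70.4 CPM in olaparib and 87.6 and 75.6 CPM in DMSO. Dctn6 (Gm26768) had -0.43. Rows named from the gene lists gave 2.60 for Ccnd2 (9330179D12Rik, 2 to 15 counts), 0.67 for Il34 (Gm15895), -1.27 for Setdb1 (Gm37500) and -1.04 for Casp9 (Cela2a and Ctrc, with the same counts). Another Ccnd2 row, Gm43126 with 949 to 1469 counts, is not among the 16. That row had a difference of -0.29, and its combination and EZM8266 libraries overlapped. Eif2ak3 (Gm43292) had -0.54, Cyp51 (Akap9) -0.37, Ezh2 (Gm26625) -0.33 and Bcl2 (D630008O14Rik) -0.17. The adjusted p was 1 for the rows other than Gm27177, so none passed the test of the difference. Without DMSO replicate 1 and olaparib replicate 2 the Gm27177 value was -2.68, and the others of the 16 ran from -1.36 (Ica1l) to 3.10 (the 9330179D12Rik row of Ccnd2).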

How the results depend on the processing

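The count of rows called for the combination against EZM8266, 0 as reported, was 12 without a filter on low counts, 1 with a filter of 1 CPM in 4 libraries, 1 with DESeq2, 1 with the strand leakage share as a covariate, 3 with a replicate block in which the DMSO numbers were crossed, and 0 to 3 when each library was left out in turn. The 3 calls without combination replicate 2 were Rn7s1, Gm47287 and Tuba1c, high in combination replicate 1 alone (Tuba1c at 51.9 and 8.53 CPM in the combination and 5.88 and 3.87 CPM in EZM8266). The difference of the olaparib effect, 0 as reported, gave 7, 1, 1, 1 and 3 calls under those 5 settings and 0 to 1 when libraries were left out. Olaparib against DMSO, 0 as reported, gave 8 without a filter, 1 with the crossed block, 1 without DMSO replicate 1 and olaparib replicate 2 and 0 to 1 when single libraries were left out. The replicate block left all 3 counts at 0. The crossed block, the fit without both libraries and the fit without the ribosomal RNA repeat rows were chosen after seeing the data. Same-numbered libraries had correlated deviations of 0.411 (combination and EZM8266), 0.359 (combination and olaparib) and 0.488 (EZM8266 and olaparib), and of -0.06, -0.497 and -0.661 between DMSO and the combination, EZM8266 and olaparib. No label ties a number to a shared batch, so whether equal numbers pair the libraries was not settled.

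Of 665 alternatives over 37 named rows 23 reversed the sign, in 9 rows near 0. Here rows go by their own symbols, not by the opposite-strand gene. Gm29233 is thus the row read above as Thbs1, and the row called Thbs1 lies over Gm29233 exons. Gm26809 had -0.02 with the CPM filter, -0.03 with no filter, -0.01 without the ribosomal RNA repeat rows and -0.12 to 0.18 over all settings. Gm49314 had -0.01, -0.02 and -0.01 under those 3, -0.01 with the replicate block and -0.46 to 0.35 without single libraries. Parp1 had 0.01 with DESeq2, 0.04 with the crossed block, 0.02 with the block, 0.07 with the leakage covariate and -0.55 to 1.13 without single libraries. Leaving out single libraries gave -0.32 to 0.07 for Gm29233, -0.10 to 0.24 for Cyren, -0.27 to 0.01 for Gm36099, -0.12 to 0.06 for Gm30489, -0.14 to 0.57 for Gm43434 and -0.56 to 0.40 for Thbs1. The cause was not tested. The interferon median stayed between 0.37 and 0.43 under all 19 alternatives. Depth limits precision, with a median SE of 0.15 among rows of 100 counts or more and 0.41 over all rows.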
